A study of Homo sapiens with 12 samples.

Results

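The genes described here are 10 heat shock genes, 9 molecular chaperones or co-chaperones and the transcription factor HSF1, chosen by name as HSPB1, HSPA8, HSP90AA1, HSP90AB1, HSPD1, HSPE1, HSPH1, DNAJB1, HSPA4 and HSF1. All 10 were among the 55782 gene symbols of the deposited count table, and all 10 were among the 15535 genes that passed the filter on low counts. RNA was sequenced from a co-culture of Jurkat, a T cell line from a human leukaemia, labelled as LAG3+ and PD1+, and Raji, a B cell line from a human Burkitt lymphoma, labelled with PDL1. PD1, whose ligands include PDL1, and LAG3 both restrain T cell activation. The Raji cells of every library were loaded with staphylococcal enterotoxin D (SED, 100 ng/ml), a superantigen that bridges MHC class II molecules and T cell receptors, and the co-culture lasted 24 h.

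The combination arm received anti-PD1 (MK3475) with anti-LAG3 (MK4280), the anti-PD1 arm received anti-PD1 with isotype antibody, the anti-LAG3 arm received anti-LAG3 with isotype antibody, and the isotype arm received isotype antibody alone. In every arm the antibodies were given at 3 doses, 0.01, 0.1 and 1 µg/ml each, and every condition gave 1 library from pooled wells, so that none had a replicate. The 3 libraries of an arm differed in dose, and p-values rest on the spread among these 12 libraries, part of which may be technical. In edgeR the spread used for a gene also draws on that of the other tested genes. No genotype other than the receptors and ligand named was given for either line. Library totals were between 23593973 and 36581754 counts, and the isotype library at 1 µg/ml was the deepest. Both lines were read together: all 24 Jurkat T cell markers and all 30 Raji B cell markers listed were detected, and 8 myeloid markers together had 8 to 21 counts per library. The difference between the mean log2 levels of T and B markers (T minus B) lay between -1.69 and -1.59 in the combination arm, -1.79 and -1.58 in the anti-PD1 arm, -1.56 and -1.48 in the anti-LAG3 arm, and -1.76 and -1.71 in the isotype arm. In such bulk samples, fewer cells of a type and less RNA per cell cannot be told apart. The early T cell activation gene CD69 had 13.6, 27.2 and 52.2 CPM (counts scaled to library size with the trimmed mean of M values) at 0.01, 0.1 and 1 µg/ml of the combination, and 12.2, 13.5 and 11.2 CPM at the same doses of isotype.

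Molecular chaperones bind unfolded or partly folded proteins and help them to fold, assemble or be degraded. HSP70 proteins such as HSPA8 take up clients delivered by J proteins such as DNAJB1, and release them with exchange factors of the HSP110 type such as HSPH1 and HSPA4, while HSP90 acts later on signalling clients that include the T cell kinase LCK. HSPD1 and HSPE1 form the chaperonin of mitochondria, and HSPB1 is a small heat shock protein that holds unfolded clients without using ATP. HSF1 is the transcription factor that induces many of these genes after heat or proteotoxic stress, and it binds repeats of the unit GAA and its complement TTC in their promoters.

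Because several of these genes are targets of HSF1, the promoter windows of RefSeq (GRCh38.p14, 250 bases before to 50 after an annotated start) were searched for paired units, GAANNTTC or TTCNNGAA. Each of these patterns is its own reverse complement, so the search covers both strands. Pairs that share a unit make a run of 3 alternating units. HSF1 was left out of this search beforehand, and RefSeq windows were matched by symbol for the other 9 genes, at 15 starts. Across all 35116 windows in the table, 13.5% held a pair and 0.49% held a run of 3 units. A pair was found for 6 of the 9 genes, and a run of 3 for HSPA8, HSP90AA1, HSP90AB1 and HSPD1, each in 1 of its windows. These counts are by gene, some with several windows, whereas the shares above are by window. By window, 4 of the 15 held a run of 3. HSPB1 and DNAJB1 had pairs and no run of 3, and the windows of HSPE1, HSPA4 and HSPH1 held no pair of exactly these letters. Shown are windows of HSPB1, which passed a test of dose slopes between arms, and of DNAJB1, which passed a test of arm means. As given below, both results were lost without some single libraries. Also shown are windows of HSPA8 and HSP90AB1, abundant genes for which no difference passed the test. Capitals mark the paired units, adjoining or overlapping pairs run together, and the start site follows the first 250 bases of each line. Counted from the start site, the first pair begins at -182 in HSPB1, -77 in DNAJB1, -230 in HSPA8 and -165 in HSP90AB1.
HSPB1, chr7:76302423-76302722, plus strand: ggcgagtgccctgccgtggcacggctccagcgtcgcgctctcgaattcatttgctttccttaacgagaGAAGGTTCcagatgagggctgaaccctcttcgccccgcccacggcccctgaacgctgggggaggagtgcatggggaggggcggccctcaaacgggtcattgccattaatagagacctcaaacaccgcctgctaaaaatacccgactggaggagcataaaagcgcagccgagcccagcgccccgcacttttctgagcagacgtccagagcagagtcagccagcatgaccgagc
DNAJB1, chr19:14518348-14518647, minus strand: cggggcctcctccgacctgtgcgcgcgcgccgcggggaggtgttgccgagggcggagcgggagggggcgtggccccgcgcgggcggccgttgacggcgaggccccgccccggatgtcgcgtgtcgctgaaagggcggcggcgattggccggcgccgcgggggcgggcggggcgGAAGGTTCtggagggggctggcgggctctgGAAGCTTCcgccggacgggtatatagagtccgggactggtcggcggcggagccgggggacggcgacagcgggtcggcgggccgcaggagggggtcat
HSPA8, chr11:123062087-123062386, minus strand: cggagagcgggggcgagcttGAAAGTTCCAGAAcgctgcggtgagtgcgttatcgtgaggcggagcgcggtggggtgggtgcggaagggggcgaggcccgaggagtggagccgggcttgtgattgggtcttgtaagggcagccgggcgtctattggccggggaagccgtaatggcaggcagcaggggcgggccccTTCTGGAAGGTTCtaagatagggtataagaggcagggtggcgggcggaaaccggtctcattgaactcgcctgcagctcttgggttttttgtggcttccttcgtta
HSP90AB1, chr6:44247693-44247992, plus strand: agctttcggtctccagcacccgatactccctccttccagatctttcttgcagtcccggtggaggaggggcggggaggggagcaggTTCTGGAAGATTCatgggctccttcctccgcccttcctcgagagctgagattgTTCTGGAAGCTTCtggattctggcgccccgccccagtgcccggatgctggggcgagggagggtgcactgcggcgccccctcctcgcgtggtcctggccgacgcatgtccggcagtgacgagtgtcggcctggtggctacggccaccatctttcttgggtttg

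The constitutive HSP90 and HSP70 genes were the most abundant of the 10. Levels of different genes are given as TPM, which scales counts to gene length and library size and was computed from the deposited gene lengths, which span all exons of a gene. HSP90AB1, the constitutive cytosolic HSP90, had a median of 3912 TPM over the 12 libraries (range 3714 to 4021). HSPA8, the constitutive cytosolic HSP70, had a median of 1775 TPM (1696 to 1874), and HSP90AA1, the stress-inducible HSP90 paralogue, had a median of 1689 TPM (1624 to 1766). HSPA8 was above HSP90AA1 in 10 of 12 libraries, and these neighbours in the order overlapped. HSP90AB1 was 2.19 to 2.42 times HSP90AA1 within each library.

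The mitochondrial chaperonin genes differed in level although their products act together: HSPD1 (HSP60) had a median of 1273 TPM (1206 to 1341), and its partner HSPE1 (HSP10) had 381 TPM (344 to 413). The within-library ratio of HSPD1 to HSPE1 was 3.17 to 3.57. In the GENCODE v29 annotation (GRCh38) HSPE1 lies at chr2:197499994-197503457 on the plus strand, inside the span of HSPD1, chr2:197486581-197516737 on the minus strand. The strand setting of the counting is not given in the sources used here, so reads in this overlap cannot be assigned with certainty. Likewise, HSPA8, HSP90AB1, HSPD1 and HSPE1 have processed pseudogenes, and the treatment of reads with several matches is not given.

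The exchange factors HSPA4 and HSPH1 had medians of 269 TPM (255 to 284) and 165 TPM (160 to 170). DNAJB1 had a median of 94.8 TPM (80.8 to 103) and HSF1 had 73.5 TPM (64.6 to 84.9), with DNAJB1 above HSF1 in all 12 libraries. HSPB1 was the lowest, with a median of 40.4 TPM and the widest relative range, 27.4 to 52.8 TPM. The 10 genes together took 1.11% to 1.16% of the counts of each library. The strictly stress-inducible HSP70 gene HSPA6 was near the floor, with 5 to 19 counts per library. The inducible pair HSPA1A and HSPA1B had 0.443 to 1.17 CPM and 30.3 to 36.3 CPM over the 12 libraries, a split that is uncertain because the 2 genes are nearly identical.

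**Figure D1:**
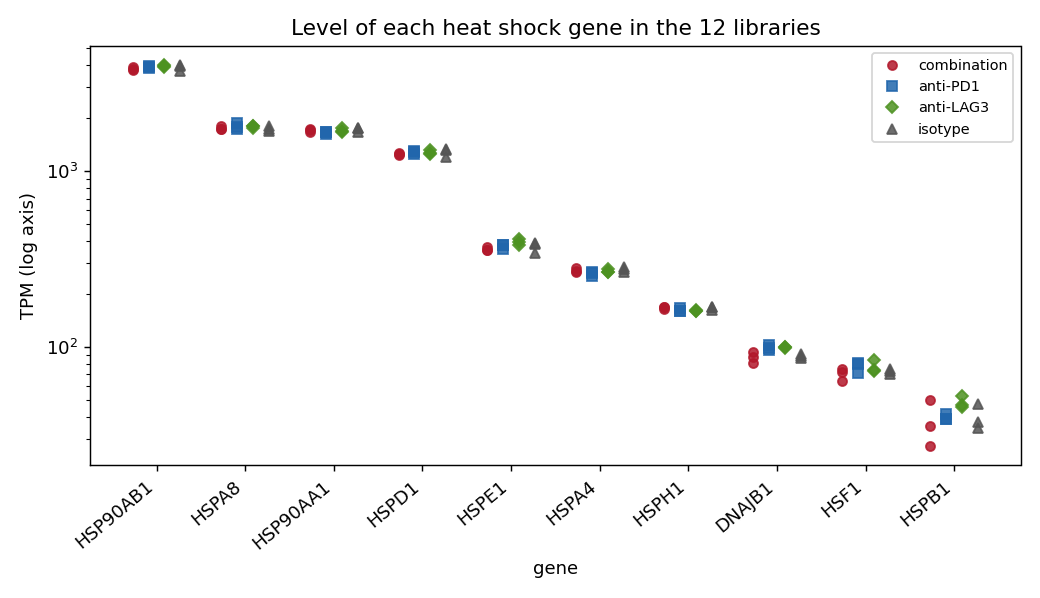
Level of each heat shock gene in TPM (log axis) in the 12 libraries, with genes ordered by their median and the 3 doses of each arm drawn as separate points. The points of an arm lie nearly on top of each other for HSP90AB1 (3714 to 4021 TPM) and spread most for HSPB1 (27.4 to 52.8 TPM).

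The abundant chaperone genes varied little over the 12 libraries. The standard deviation (SD) of log2 CPM over all 12 libraries was 0.0165 for HSP90AB1, the lowest of the 15535 genes tested, and 0.0273 for HSPD1, rank 24. It was 0.0392 for HSPH1, 0.0409 for HSP90AA1, 0.0433 for HSPA4, 0.0588 for HSPE1 and 0.059 for HSPA8. The median SD of all tested genes was 0.126, but the SD falls with depth of coverage, and the 879 tested genes with a median of at least 200 CPM had a median SD of 0.064. Among those 879 genes the SD of HSP90AB1 stood at the 0.114 percentile, HSPD1 at 1.59, HSPH1 at 10.4, HSP90AA1 at 13.1, HSPA4 at 16.6, HSPE1 at 41.4 and HSPA8 at 41.9. HSP90AB1 and HSPD1 lay near the lower end of these 879 genes and HSPE1 and HSPA8 near the middle, although the set spans a wide range of levels and is not matched to each gene. DNAJB1 (0.101) and HSF1 (0.102) were below the median of all tested genes, and HSPB1 (0.27) was at the 75.4 percentile of all tested genes.

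**Figure D2:**
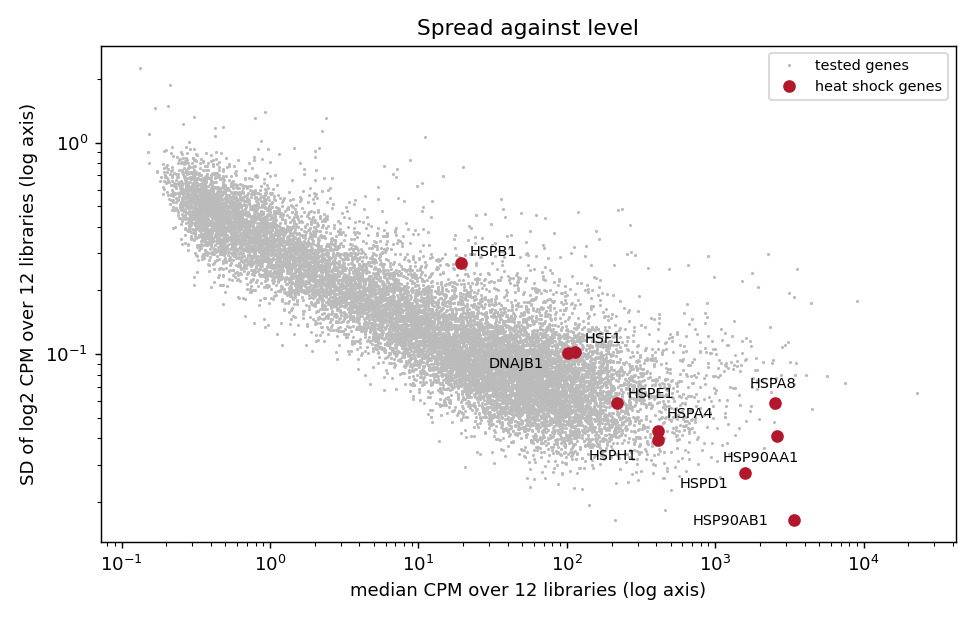
SD of log2 CPM over the 12 libraries against median CPM (both log axes) for all tested genes (grey) and the 10 heat shock genes (red). HSP90AB1 has the lowest SD of all tested genes (0.0165), and HSPB1 (0.27) lies above most genes of its level.

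HSPB1 fell with the dose of the combination. It encodes the small heat shock protein HSP27 and lies at chr7:76302544-76304295 on the plus strand (GRCh38). In the combination arm HSPB1 had 24.3, 16.8 and 13.3 CPM at 0.01, 0.1 and 1 µg/ml, from 698, 456 and 341 counts. The exact Poisson 95% interval, which covers counting error only, was 22.5 to 26.1 CPM at the lowest dose and 12.0 to 14.8 CPM at the highest. The anti-PD1 arm had 19.95, 18.5 and 18.7 CPM at the same doses. The anti-LAG3 arm had 24.9, 22.1 and 22.1 CPM. The isotype arm had 17.6, 16.4 and 23.9 CPM. The combination library at 1 µg/ml was the lowest of the 12, the isotype library at 1 µg/ml was the highest of its arm, and all 3 anti-LAG3 libraries were above all 3 anti-PD1 libraries.

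The slope of log2 CPM per 10-fold dose was tested in each arm with edgeR's quasi-likelihood F test, with Benjamini-Hochberg adjustment over all 15535 genes and an adjusted p under 0.05 called a change; all adjusted p-values below are from this test unless stated. The slope of HSPB1 in the combination arm was -0.44 ± 0.07 (SE; adjusted p = 2.05e-04), in a comparison in which 4.27% of all tested genes were called. The isotype slope was 0.23 ± 0.06 and was not called (adjusted p = 0.0905), while 0.856% of tested genes were called for that slope. The combination slope minus the isotype slope was -0.67 ± 0.10 (adjusted p = 7.81e-05). At matched doses HSPB1 was 0.46 higher, 0.04 higher and 0.84 lower on the log2 scale in the combination than in isotype, at 0.01, 0.1 and 1 µg/ml. The call on the difference of slopes was lost without the combination library at 0.01 µg/ml (-0.57, adjusted p = 0.151) and without the isotype library at 1 µg/ml (-0.33, adjusted p = 0.717). The combination slope by itself was -0.44 (adjusted p = 3.27e-05) without that isotype library, and was not called without the combination library at 0.01 µg/ml (-0.34, adjusted p = 0.649) or at 1 µg/ml (-0.53, adjusted p = 0.0982).

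The single antibodies gave smaller slopes of HSPB1, -0.05 ± 0.07 in the anti-PD1 arm and -0.08 ± 0.06 in the anti-LAG3 arm. Minus the isotype slope, they were -0.28 ± 0.09 for anti-PD1 (adjusted p = 0.245) and -0.32 ± 0.09 for anti-LAG3 (adjusted p = 0.293). Neither was called, both had the direction of the combination, and all 3 antibody arms are set against the same isotype libraries. The combination slope minus the anti-PD1 slope was -0.39 ± 0.10 (adjusted p = 0.066) and minus the anti-LAG3 slope was -0.35 ± 0.09 (adjusted p = 0.0892), so neither difference passed the threshold. These comparisons called 0.644% and 0.766% of all tested genes and 0 of the 10 in edgeR and in DESeq2, with 1 of the 10 at an unadjusted p under 0.05 in each. The combination slope minus the anti-PD1 slope was called after a correction for GC content and gene length (-0.44, adjusted p = 0.0154), and both differences were called with no filter on low counts and without any 1 of the isotype libraries. The transcript of HSPB1 has 64.3% GC against a median of 48.5% over tested genes, and with that correction the combination slope minus the isotype slope was -0.63 (adjusted p = 3.87e-05). In the model of arm means, HSPB1 was 0.24 ± 0.21 above isotype in the anti-LAG3 arm (adjusted p = 0.553) and rose by 0.52 without the isotype library at 1 µg/ml (adjusted p = 0.0252).

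**Figure D3:**
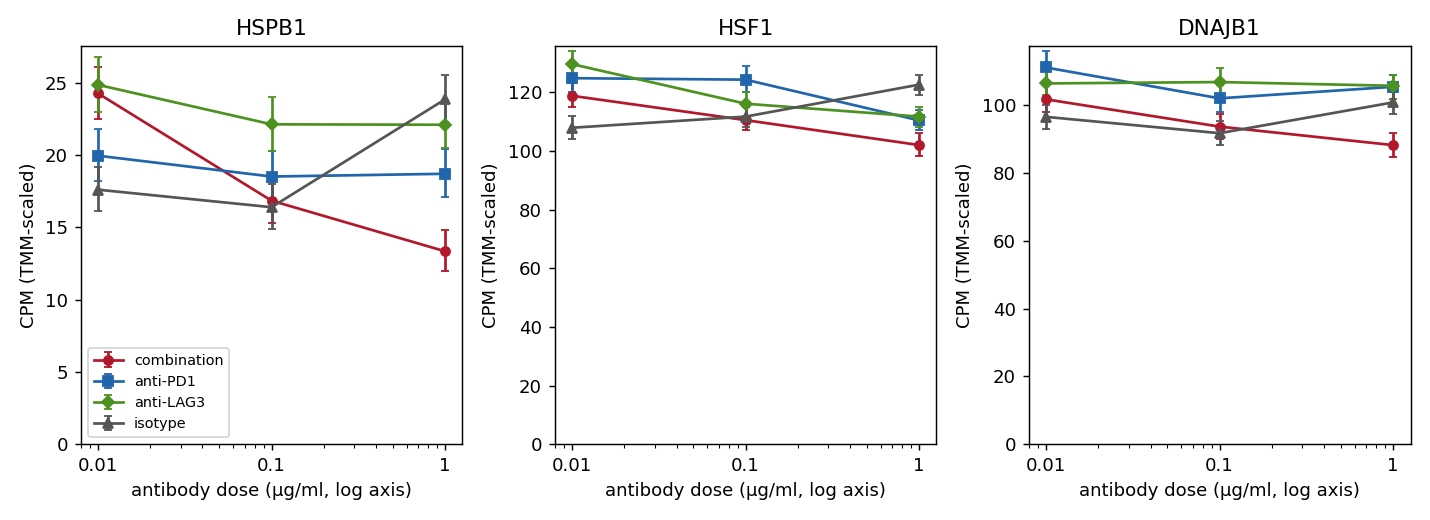
CPM of HSPB1, HSF1 and DNAJB1 against antibody dose (log axis) in the 4 arms, 1 library per point, with exact Poisson 95% intervals as bars. HSPB1 in the combination has 24.3 CPM at 0.01 µg/ml and 13.3 CPM at 1 µg/ml, while isotype has 17.6 and 23.9 CPM.

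HSF1, the heat shock transcription factor, had a lower dose slope in the combination than in isotype. In the combination arm HSF1 had 118.8, 110.5 and 102.0 CPM at 0.01, 0.1 and 1 µg/ml. It had 124.8, 124.3 and 110.4 CPM in the anti-PD1 arm, and 129.6, 116.1 and 111.7 CPM in the anti-LAG3 arm. In the isotype arm it had 107.9, 111.7 and 122.6 CPM. All 3 antibody arms were lower at 1 than at 0.01 µg/ml, and the isotype arm was higher. The slope in the combination minus that in isotype was -0.20 ± 0.05 (adjusted p = 0.0157). The same difference was -0.18 ± 0.05 for anti-PD1 (adjusted p = 0.112) and -0.20 ± 0.05 for anti-LAG3 (adjusted p = 0.128), and these 3 differences share the isotype libraries. The combination slope minus the anti-PD1 slope was -0.02 ± 0.05, and minus the anti-LAG3 slope was -0.00257 ± 0.049, in log2 per 10-fold dose. The HSF1 call was lost in DESeq2 (adjusted p = 0.0729), against a slope of 0 in place of the isotype slope (-0.11, adjusted p = 0.0818), and without the combination library at 0.01 (adjusted p = 0.54) or 1 µg/ml (adjusted p = 0.258) or the isotype library at 0.01 (adjusted p = 0.126) or 1 µg/ml (adjusted p = 0.854). The transcript of HSF1 has 64.7% GC, the highest of the 10. The HSF1 call was kept after the correction for GC content and gene length.

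HSPB1 and HSF1 were the only 2 of the 10 genes called in the combination slope minus the isotype slope, both downward, against 4.63% of all tested genes called in either direction and 2.80% downward. The median difference of slopes of the 10 genes was -0.03 (range -0.67 to 0.04). No gene of the 10 was called in edgeR for the anti-PD1 slope minus isotype (0.264% of tested genes called) or for the anti-LAG3 slope minus isotype (0.0708%), although 3 of the 10 had an unadjusted p under 0.05 in each, and DESeq2 called 0 of them in both. HSPA8 had slope differences of -0.10 ± 0.05 for the combination, -0.11 ± 0.05 for anti-PD1 and -0.05 ± 0.05 for anti-LAG3, none of them called. Those of HSP90AB1 were -0.00129 ± 0.0437 for the combination, -0.01 ± 0.04 for anti-PD1 and 0.02 ± 0.04 for anti-LAG3.

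**Figure D4:**
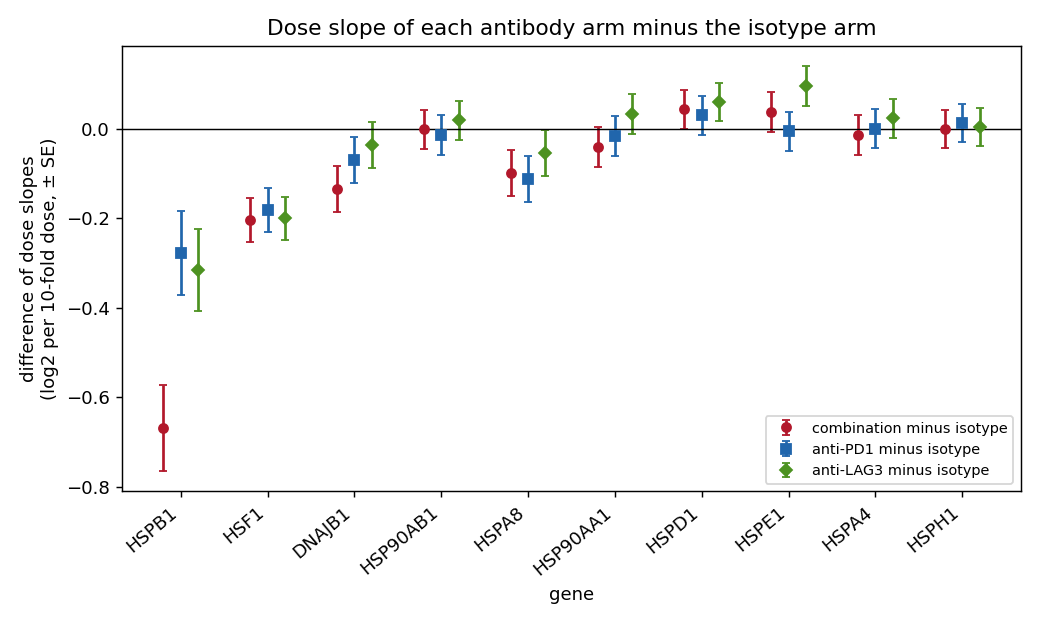
Dose slope of each heat shock gene in the combination, anti-PD1 and anti-LAG3 arms minus the isotype slope (log2 per 10-fold dose, bars are SE). HSPB1 in the combination (-0.67) lies farthest from 0, and HSF1 lies near -0.20 in all 3 antibody arms, which share the isotype libraries.

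DNAJB1, the J protein that delivers clients to HSP70, had a lower arm mean in the combination than in the anti-LAG3 arm. It lies at chr19:14514770-14529770 on the minus strand (GRCh38). In the combination arm DNAJB1 had 101.8, 93.8 and 88.3 CPM at 0.01, 0.1 and 1 µg/ml. The anti-PD1 arm had 111.2, 102.1 and 105.5 CPM, and the anti-LAG3 arm had 106.5, 106.9 and 105.8 CPM. The isotype arm had 96.6, 91.8 and 100.9 CPM. All 6 libraries with a single antibody were above all 6 libraries of the combination and isotype arms, by a narrow margin. The nearest were anti-PD1 at 0.1 µg/ml (102.1 CPM, Poisson 95% interval 98.1 to 106) and the combination at 0.01 µg/ml (101.8 CPM, 98.2 to 106). This grouping of arms was not tested, and the share of all tested genes that separate in this way was not counted. The arm mean of the combination minus that of anti-LAG3 was -0.17 ± 0.05 on the log2 scale (adjusted p = 0.046), and this was the only 1 of the 10 genes called there, where 5.75% of tested genes were called. Minus the anti-PD1 mean it was also -0.17 ± 0.05, without a call (adjusted p = 0.119), in a comparison that called 0.354% of tested genes. Against isotype the arm means of DNAJB1 were 0.14 ± 0.05 for anti-PD1 (adjusted p = 0.124) and 0.14 ± 0.05 for anti-LAG3 (adjusted p = 0.0719). The call was lost without 9 of the 12 libraries taken 1 at a time (adjusted p up to 0.268), after the GC and length correction (-0.12, adjusted p = 0.14), with T minus B as a covariate (-0.18, adjusted p = 0.235) and with no dose term (-0.17, adjusted p = 0.0592). The T minus B difference was higher in every anti-LAG3 library than in any combination library, and its part in the result was not tested beyond that covariate.

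No gene of the 10 was called in edgeR in the other comparisons of arm means. The combination minus isotype called 0.00644% of tested genes, anti-PD1 minus isotype 3.82%, anti-LAG3 minus isotype 10.0%, and anti-PD1 minus anti-LAG3 0% (691 genes had an unadjusted p under 0.05, and DESeq2 also called 0). Of the 10 genes, 0, 2, 1 and 0 had an unadjusted p under 0.05 in these 4 comparisons, 1 did in the combination minus anti-PD1, and DESeq2 called 0 of the 10 in all 5. The arm model takes dose as a factor shared by all arms, so a dose response of 1 arm alone widens its residual spread. Of 6 genes listed for the dose response of the co-culture, CD69 among them, 0 were called in the combination minus isotype arm mean. In the slope minus isotype, 5 were called upward and 1 downward. The shares called in arm means therefore do not rank the arms by effect. Without the isotype library at 1 µg/ml, DNAJB1 (0.20, adjusted p = 0.0198) and HSF1 (0.19, adjusted p = 0.0294) were called in anti-PD1 minus isotype, and DNAJB1 (0.20, adjusted p = 0.00992) and HSF1 (0.18, adjusted p = 0.023) joined HSPB1 in anti-LAG3 minus isotype. The median over the 10 genes was -0.02 for the combination, -0.01 for anti-PD1 and 0.01 for anti-LAG3, each minus isotype.

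The other 7 genes were called in none of the 11 comparisons. HSP90AB1 had 3396, 3363 and 3349 CPM in the combination arm at 0.01, 0.1 and 1 µg/ml, and 3444, 3390 and 3403 CPM in the isotype arm. Its arm mean in the combination minus isotype was -0.02 ± 0.04. HSP90AA1 had 2728, 2597 and 2600 CPM in the combination, and 2663, 2656 and 2685 CPM in isotype. HSPA8 had 2595, 2424 and 2518 CPM in the combination, and 2415, 2369 and 2686 CPM in isotype. For HSPA8 the isotype library at 1 µg/ml was the highest of the 12, as it was the highest of its arm for HSPB1, HSF1 and DNAJB1.

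The mitochondrial chaperonin genes moved little. HSPD1 had 1559, 1563 and 1593 CPM in the combination arm and 1636, 1611 and 1574 CPM in the isotype arm, with overlapping arms. HSPE1 had 208.4, 213.4 and 209.8 CPM in the combination, and 216.6, 231.8 and 236.4 CPM in the anti-LAG3 arm, whose libraries were all above those of the combination. The combination minus anti-LAG3 difference in the arm mean of HSPE1 was -0.12 ± 0.04 (adjusted p = 0.116). The exchange factor HSPH1 had 412.6, 409.7 and 420.4 CPM in the combination, and 387.2, 398.7 and 396.8 CPM in the anti-LAG3 arm, a difference in arm means of 0.07 ± 0.04 (adjusted p = 0.3) between arms that did not overlap. The share of all tested genes whose arms did not overlap was not counted. Of the 15535 tested genes, 3338 had an unadjusted p under 0.05 in the combination minus anti-LAG3, so nothing is read from the separation of HSPE1 or HSPH1. HSPA4 ranged from 410.1 to 419.2 CPM in the combination, 380.2 to 404.9 CPM in the anti-PD1 arm, 399.2 to 416.1 CPM in the anti-LAG3 arm and 413.0 to 425.2 CPM in the isotype arm. The standard errors of these arm differences, about 0.04 on the log2 scale for each of these 7 genes except HSPA8 (0.05), limit what could be detected. They draw on the spread of other tested genes as well as on the gene's own. The SD of HSP90AB1 itself over the 12 libraries was 0.0165.

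**Figure D5:**
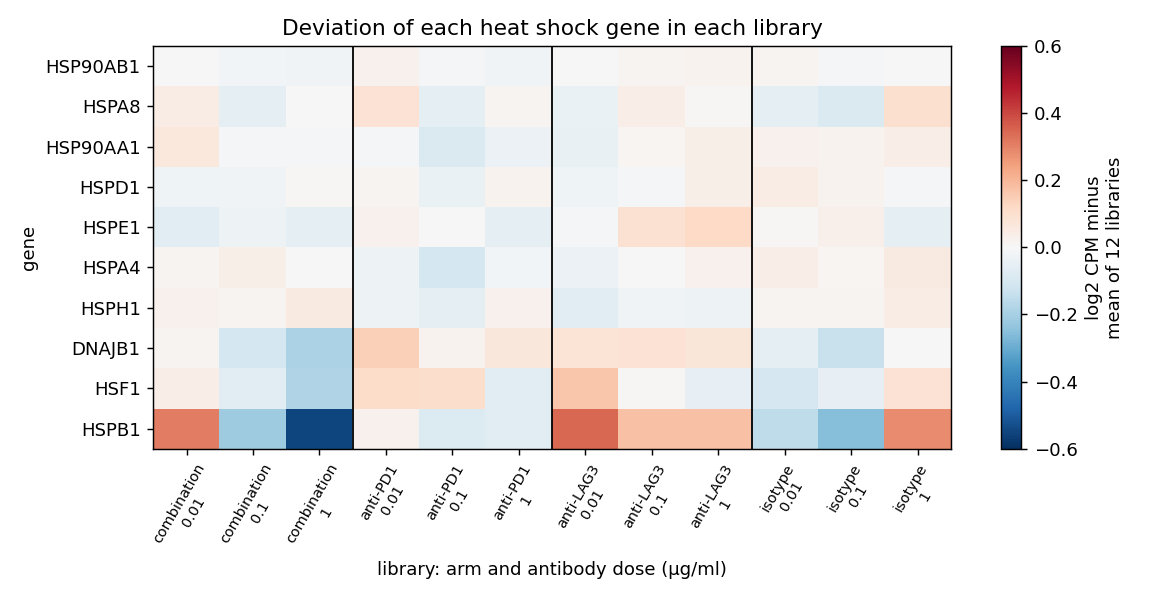
log2 CPM of each heat shock gene minus its mean over the 12 libraries (colour), with genes ordered by median TPM from top to bottom and libraries by arm and dose from left to right. Deviations are faint for the 7 abundant genes and strongest for HSPB1, which is lowest in the combination at 1 µg/ml.

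The 10 genes did not vary as 1 group over the libraries. Among the 45 pairs, Pearson's r of log2 CPM over the 12 libraries ran from -0.66 (HSPH1 and HSF1) to 0.852 (HSP90AA1 and HSPA4), with a median of 0.238. HSPB1 was nearest to DNAJB1 (0.76) and HSF1 (0.741). These values are descriptions, since the 12 libraries share depth and composition as well as treatment. Over all tested genes, those most like HSPB1 included ARRB2 (r = 0.965), CD3E (0.955), SUMO3 (0.954) and BCYRN1 (0.943). Those most like HSF1 were RNF126 (0.95), CDT1 (0.935), HID1 and PIANP (both 0.931) and RP11-443B20.1 (0.908). The 4 of these with a GC value held 61.2% to 64.9% GC, against 64.7% for HSF1, while the 4 genes named for HSPB1 held 48.5% to 58.8%, against 64.3% for HSPB1. Those most like DNAJB1 were CD1A (0.956), NOSIP (0.951), PCBD1 (0.943), UBL4A (0.937) and WDR1 (0.936).

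Beyond these 10, 109 other genes of protein folding were listed, of which 98 were tested. In the combination slope minus isotype, 3 of the 98 were called upward and 5 downward, beside 4.63% of all tested genes in either direction, 1.83% upward and 2.80% downward. The median difference of slopes over the 98 was -0.02, and nothing particular to these genes is read from the counts. The falls were HSPA4L, CDC37, AHSA1, PFDN5 and DAXX. HSPA4L, an HSP110-type paralogue of HSPA4, had 28.7, 21.0 and 15.9 CPM in the combination at 0.01, 0.1 and 1 µg/ml, and 25.9, 26.0 and 26.5 CPM in isotype. Its slope was -0.45 ± 0.07 relative to isotype (adjusted p = 3.75e-04), and that call was lost without the combination library at 0.01 µg/ml (adjusted p = 0.198) or the isotype library at 1 µg/ml (adjusted p = 0.228). HSPA4 itself, on the same measure, was -0.01 ± 0.04 (adjusted p = 0.912).

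The kinase co-chaperone CDC37 fell by 0.19 ± 0.05 per 10-fold dose relative to isotype (adjusted p = 0.0224), and AHSA1, which activates the ATPase of HSP90, fell by 0.17 ± 0.05 (adjusted p = 0.0259). They were the 2 called of 16 HSP90 co-chaperones tested, beside the 2.80% of all tested genes called downward. CDC37 had 196.0, 175.3 and 171.2 CPM in the combination, against 167.5, 169.0 and 189.9 CPM in isotype. AHSA1 had 264.9, 230.8 and 227.8 CPM in the combination, against 234.6, 239.0 and 256.0 CPM in isotype. The prefoldin subunit PFDN5 fell by 0.19 ± 0.05 (adjusted p = 0.0453), and DAXX, a histone chaperone that also binds HSF1, fell by 0.17 ± 0.05 (adjusted p = 0.0413). Within the combination arm alone none of these 4 slopes was called: CDC37 had -0.10 ± 0.03 (adjusted p = 0.125), AHSA1 -0.11 ± 0.03 (adjusted p = 0.0508), PFDN5 -0.05 ± 0.04 (adjusted p = 0.555) and DAXX -0.11 ± 0.03 (adjusted p = 0.0581). The isotype slopes of these genes were 0.09 ± 0.03 for CDC37, 0.06 ± 0.03 for AHSA1, 0.13 ± 0.04 for PFDN5 and 0.05 ± 0.03 for DAXX, none of them called. The calls of CDC37 and AHSA1 were lost without the library at 0.01 or at 1 µg/ml of either the combination or the isotype arm (slopes -0.27 to -0.11 and -0.26 to -0.08). Those of PFDN5 and DAXX were lost without 7 and 9 of the 12 libraries taken 1 at a time, among them the combination library at 0.01 µg/ml (-0.05 and -0.13) and the isotype library at 1 µg/ml (-0.11 and -0.14).

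The 3 rises were endoplasmic reticulum genes, of 17 tested, beside 1.83% of all tested genes called upward. PDIA6, a protein disulphide isomerase, had 315.9, 357.6 and 386.4 CPM in the combination and 353.6, 337.9 and 337.9 CPM in isotype, and rose by 0.18 ± 0.04 per 10-fold dose relative to isotype (adjusted p = 0.0146). DNAJC3, a J protein of the endoplasmic reticulum, rose by 0.19 ± 0.05 (adjusted p = 0.0334), and SDF2L1, a luminal partner of such J proteins, rose by 0.22 ± 0.06 (adjusted p = 0.0368). Within the combination arm alone, the slopes of PDIA6 (0.15 ± 0.03, adjusted p = 0.0041) and DNAJC3 (0.13 ± 0.04, adjusted p = 0.0432) were called and that of SDF2L1 was not (0.14 ± 0.04, adjusted p = 0.0882). Without 1 library these rises relative to isotype were 0.14 to 0.21, 0.16 to 0.22 and 0.03 to 0.41, and the calls were lost without 4, 7 and 7 of the 12 libraries. None of the 8 TRiC subunits, 15 cytosolic J proteins, 9 HSP70 exchange factors or 12 mitochondrial chaperones and proteases tested was called in this comparison, where 1, 3, 2 and 3 of them had an unadjusted p under 0.05.

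In arm means, 2 co-chaperones that act on HSP70 rose in both single-antibody arms relative to isotype. HSPBP1, an exchange factor that releases nucleotide from HSP70, had 72.8, 76.5 and 70.5 CPM in the anti-PD1 arm and 76.7, 76.1 and 77.1 CPM in the anti-LAG3 arm, against 60.2, 59.8 and 58.6 CPM in the isotype arm. It rose by 0.30 ± 0.05 with anti-PD1 (adjusted p = 0.00424) and by 0.37 ± 0.05 with anti-LAG3 (adjusted p = 4.67e-04). STUB1, the ubiquitin ligase CHIP that marks clients of HSP70 for degradation, had 59.8, 56.0 and 52.3 CPM in the anti-PD1 arm and 53.5, 56.2 and 53.6 CPM in the anti-LAG3 arm, against 44.3, 44.7 and 44.9 CPM in isotype. It rose by 0.33 ± 0.06 with anti-PD1 (adjusted p = 0.005) and by 0.29 ± 0.06 with anti-LAG3 (adjusted p = 0.00277). In the combination HSPBP1 had 59.5, 62.2 and 62.9 CPM and STUB1 had 45.1, 46.3 and 48.3 CPM, below both single antibodies for each gene. After the GC and length correction the differences with anti-PD1 were 0.14 for HSPBP1 (adjusted p = 0.173) and 0.16 for STUB1 (adjusted p = 0.14). With anti-LAG3 they were 0.18 for HSPBP1, still called (adjusted p = 0.0268), and 0.10 for STUB1 (adjusted p = 0.288). With T minus B as a covariate, the differences with anti-LAG3 were 0.39 for HSPBP1 and 0.44 for STUB1, larger than without it but not called (adjusted p = 0.116 for each gene). Both rises with anti-PD1 lost their call without the anti-PD1 library at 0.01 µg/ml (adjusted p = 0.0533 for HSPBP1 and 0.12 for STUB1) or the isotype library at 0.1 µg/ml (0.0625 and 0.0736). The combination minus anti-PD1 was -0.25 ± 0.05 for HSPBP1 (adjusted p = 0.0253) and -0.26 ± 0.06 for STUB1 (adjusted p = 0.0387). Minus anti-LAG3 the values were -0.32 ± 0.05 (adjusted p = 0.00189) and -0.22 ± 0.06 (adjusted p = 0.0205). These calls were lost without 4, 6, 0 and 4 of the 12 libraries, in that order. Over all alternatives their adjusted p reached 0.373, 0.38, 0.0623 and 0.555.

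Of the 98 genes, 4 were called upward and 1 downward in anti-PD1 minus isotype, and 7 upward and 2 downward in anti-LAG3 minus isotype, where 3.82% and 10.0% of all tested genes were called, so the counts are near those shares. Others upward were the HSP90 co-chaperone UNC45A and SDF2L1 in both, and the mitochondrial proteases CLPP and LONP1 with anti-LAG3. Downward were the ribosome-bound J protein DNAJC2 in both, and CLPX, the unfoldase of the mitochondrial ClpXP protease, with anti-LAG3 (-0.21 ± 0.06, adjusted p = 0.0204). CLPP, the protease subunit of the same complex, moved the other way (0.21 ± 0.05, adjusted p = 0.0098). After the GC and length correction, CLPP (0.03, adjusted p = 0.774), LONP1 (0.02, adjusted p = 0.781), CLPX (-0.16, adjusted p = 0.0737) and SDF2L1 (0.06, adjusted p = 0.734) were not called in anti-LAG3 minus isotype. Their calls there were also lost without 4, 6, 4 and 4 of the 12 libraries taken 1 at a time, in each case including the isotype library at 0.1 µg/ml. In anti-PD1 minus isotype, the calls of DNAJC2, UNC45A and SDF2L1 were lost without 8, 3 and 5 of the 12 libraries. Over all alternatives their adjusted p there reached 0.236, 0.209 and 0.605. In anti-LAG3 minus isotype, the calls of DNAJC2 and UNC45A were lost without 0 and 2 libraries, and their adjusted p reached 0.608 and 0.25. The 2 comparisons share the isotype libraries. In arm means of the combination minus anti-PD1, 0 of the 98 were called upward and 2 downward, beside 0.354% of all tested genes. In the combination minus anti-LAG3, 2 were called upward and 5 downward, beside 5.75%.

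In the authors' deposited table for the combination at 1 µg/ml, which sets that library against all 3 isotype libraries, the log2 fold change of HSPB1 was -0.53 with an SE of 0.21 and an adjusted p of 0.349. The authors' deposited tables gave HSPB1 -0.20 at 0.1 µg/ml and 0.33 at 0.01 µg/ml of the combination. For the other 9 genes, the log2 fold changes in the authors' deposited tables of all 9 antibody-treated libraries lay between -0.16 and 0.21. Of 90 values for the 10 genes, 87 had an adjusted p, of which 0.349 was the lowest. HSPB1 had none with anti-LAG3 at 0.01 or 0.1 µg/ml or with anti-PD1 at 0.01 µg/ml. With anti-LAG3 at 0.01 µg/ml its log2 fold change was 0.37 (authors' unadjusted p = 0.0602).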

How the data were processed

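RNA of 12 co-culture libraries (4 arms at 3 doses) was analysed. Labels call the molecule polyA RNA, but the extraction protocol speaks of total RNA. The authors deposited raw read counts with a length for 55782 gene symbols, and per the file headers 9 tables of log2 fold changes, standard errors and p-values, each for 1 antibody-treated library against the 3 isotype libraries. The submitters' processing notes name Trimmomatic 0.36, STAR 2.5.2b, Subread 1.5.2, DESeq2 and GRCh38; the sources used here do not give the annotation, strand setting or multi-mapping rule. Not used were 4 count columns that match no label and 36 per-sample columns of the comparison tables.

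Genes were kept with filterByExpr (minimum count 10, by arm), scaled by TMM and tested in R 4.3.3 with edgeR 4.0.16 (quasi-likelihood F test, robust), adjusted by Benjamini-Hochberg over all 15535 genes kept. Arm means came from a model of arm plus dose (6 residual degrees of freedom), and slopes from a model with 1 slope on log10 dose per arm (4). Levels are CPM, and log2 CPM with a prior count of 2. The procedure was tested on simulated data. Alternatives were other scalings (RLE, upper quartile), no filter or a minimum count of 50, DESeq2 1.42.0, a correction for GC content and length (loess, span 0.3), a T minus B marker covariate, no dose term, slopes against 0, and each library left out. Replicate numbers in the tables stand for doses. Genes and lists were chosen with earlier results of these data known. Text names all 10 genes, called genes of the other lists by smallest adjusted p, and the 5 genes with highest r to each called member, except 2 genes that are not reported here.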

Additional observations from a re-analysis of the deposited data

Results flagged for a closer look

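HSPA4L, an HSP110-type gene, had dose slopes in the combination that differed from both single antibodies by a test of the difference itself. In the combination minus anti-PD1 the difference of slopes was -0.45 ± 0.08 (SE; log2 per 10-fold dose; edgeR quasi-likelihood, adjusted p = 0.00229), and in the combination minus anti-LAG3 it was -0.40 ± 0.07 (adjusted p = 0.00522). HSPA4L fell from the lowest to the highest dose in the combination (28.7, 21.0 and 15.9 CPM), while the anti-PD1 arm had 22.5, 22.7 and 23.2 CPM and the anti-LAG3 arm had 25.4, 26.4 and 24.3 CPM. The direction was the same under all 20 alternatives of each comparison. Among them, the slope against 0 is that of the combination alone and does not test the difference. The call against anti-PD1 was lost with the T minus B covariate (-0.41, adjusted p = 0.229) and without the library at 0.01 or 1 µg/ml of either arm (adjusted p up to 0.347), and the call against anti-LAG3 was lost in DESeq2 (-0.39, adjusted p = 0.0796) and without the library at 0.01 or 1 µg/ml of either arm (adjusted p up to 0.953).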

How the results depend on the processing

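Of 2198 values of the 10 genes over the 11 comparisons and their alternatives, 1983 kept direction and side of the threshold, 20 lost a call, 22 gained one, 173 changed sign without a call in either fit, and 0 reversed a called direction. In the combination minus isotype slope, 2 of the 10 genes were called, and 1 was called in DESeq2 and against a slope of 0. In the combination minus anti-LAG3 arm mean, 1 was called, and 0 after the GC and length correction, with the T minus B covariate or with no dose term. For the slope of the combination minus anti-PD1, 0 were called, and 1 (HSPB1) with no low count filter, after the GC and length correction and against 0. The fit against 0 leaves out the second arm, so it tests the combination slope alone and not a difference between arms. Minus anti-LAG3 the slope count was also 0, and 1 with no low count filter and against 0, while the anti-LAG3 minus isotype slope gave 1 in place of 0 with no filter. The cause was not tested.

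With 1 library left out, the number of the 10 genes called was 0 to 2 for the combination minus isotype slope, 0 to 1 for the slopes of anti-PD1 minus isotype, the combination minus anti-PD1 and the combination minus anti-LAG3, 0 to 1 for the arm means of the combination minus anti-LAG3 and minus anti-PD1, 0 to 2 for anti-PD1 minus isotype and 0 to 3 for anti-LAG3 minus isotype. Leaving out a library leaves 2 in its arm, and the spread is then taken from all arms. Counts over all genes moved more: for the combination minus isotype slope 719 genes were called, 34 without the isotype library at 1 µg/ml, 101 without the combination library at 0.01 µg/ml and 290 in DESeq2. For the combination minus anti-LAG3 arm mean 893 were called, 126 with the T minus B covariate and 449 after the GC and length correction. Over the alternatives the counts were 8 to 2045 for anti-LAG3 minus isotype (1560 as reported) and 0 to 1044 for anti-PD1 minus isotype (594). The combination slope alone, added after seeing the data, gave HSPB1 -0.53 to -0.34 with 1 library left out.

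No paired analysis was possible because the labels give no replicate numbers apart from dose, which the arms share and which was already a term of the arm model. With 1 library per condition, a dose effect and a library effect cannot be told apart. Depth limits HSPB1 most, at 341 to 854 counts per library.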
